A study of Mus musculus with 6 samples.

Results

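The citrate cycle genes were examined in RNA from the intestine of BALB/c mice, comparing 3 wild type mice (genotype label WT) with 3 mice knocked out for FcεRIα, the IgE-binding chain of the high-affinity IgE receptor (genotype label FC). Members were the genes whose pathway annotation in the deposited tables holds the KEGG citrate cycle map, which took 32 of 56362 features. The design text of the series gives 3 mice per genotype, 1 for each library, and DSS stands in every sample title and is not spelled out in the labels, so no group without that mark was compared here. How the receptor gene was deleted, and the age and sex of the mice, were not stated in the labels. The samples are labelled intestine, and the series title names epithelial cells. The set of genes was proposed with earlier results of these data in view, so the differences between genotypes below describe these libraries and are not an independent test.

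The citrate cycle runs in the mitochondrial matrix, where acetyl-CoA condenses with oxaloacetate to citrate and is oxidised to carbon dioxide while NADH, FADH2 and a nucleoside triphosphate are formed. Pyruvate enters through the pyruvate dehydrogenase complex, and pyruvate carboxylase refills oxaloacetate. Citrate that leaves the mitochondrion is split by ATP-citrate lyase to give cytosolic acetyl-CoA for lipid synthesis. In the colon, epithelial cells oxidise butyrate from the lumen through this cycle.

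Totals ran from 19031833 to 23092382 counts per library. Levels are given as CPM, counts scaled to a common library size, on totals scaled by TMM (a factor that makes the bulk of genes comparable between libraries), in the order of libraries 1, 2 and 3 of each group. A count of 0 allowed up to 0.124 to 0.187 CPM (the level of 3 counts, covering counting error only). Fcer1a, the targeted gene, had 0, 10 and 18 counts in WT and 1, 0 and 0 in FC libraries, so the label of WT library 1 could not be checked by it. That library stood apart from the other WT libraries. Mitochondrially encoded RNA took 10.3% of its counts against 2.54% to 3.64% in the other 5 libraries. Its summed level of 16 epithelial markers was 31123 CPM against 16022 and 15122 CPM in WT libraries 2 and 3 and 23086 to 27455 CPM in FC libraries. Its 8 smooth muscle markers summed to 328 CPM against 1415 to 2340 CPM in the others. The 9 colonocyte markers summed to 1198 to 6383 CPM, and the 11 small intestinal markers to 103 to 264 CPM. Of the small intestinal markers Apoa1, Apoa4, Lct and Sis had 0 to 13 counts in each library. Slc5a1, at 52.0 to 162 CPM, and Apob were higher in all FC libraries, as were 8.73% of all genes tested. Their log2 fold changes were 0.88 (SE 0.29) and 3.08 (SE 0.51). In Fabp2, Fabp6, Anpep, Alpi and Slc10a2 the groups overlapped, with log2 fold changes of 0.48, 0.90, 0.45, -0.86 and -0.07. In bulk tissue, fewer cells of a type and less RNA per cell cannot be told apart.

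As a set, citrate cycle genes were higher on average in FC gut. Of the 32 members, 29 passed the filter on low counts, and 27 of these had a positive log2 fold change (FC over WT), where 44.2% of all 16732 genes tested did. Their median log2 fold change was 0.25, against -0.05 over all genes tested. In 8 members all FC libraries lay above all WT libraries (Pdha1, Dlat, Idh3b, Idh3g, Suclg1, Sdha, Sdhd and Acly), as did 8.73% of all genes tested. In 0 members all lay below, as in 4.27% of all genes. Overlap was read on TMM-scaled CPM alone, and whether these genes stay parted with other scaling factors was not computed. By edgeR's quasi-likelihood test 0 members passed at an adjusted p under 0.05, with 0% of all genes called, and the smallest adjusted p of a member was 0.684. At an unadjusted p under 0.05 edgeR counted 4 members, all higher (Sdha, Acly, Pcx and Suclg1), with 4.54% of all genes tested higher at that level. That count of 4 was 18 without WT library 1, 1 without WT library 2, 0 without FC library 1 or FC library 2, and 2 without either of the remaining libraries. The count over all genes tested, in either direction, moved too. It was 1145 with all libraries, 4344, 629 and 856 without WT library 1, 2 or 3, and 405, 535 and 986 without FC library 1, 2 or 3. DESeq2 called 0 members, with 0.759% of all genes called.

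The mean of the 29 genes by library, as log2 CPM centred on the 6 libraries, was 0.17, -0.41 and -0.26 in WT and 0.19, 0.18 and 0.14 in FC gut. The FC libraries thus lay close together, WT libraries 2 and 3 lay below them, and WT library 1 lay within their range. In 23 of the 29 genes WT libraries 2 and 3 were both below every FC library, as in 25.8% of all genes tested. In 10 of the 29 WT library 1 was the highest of the 6, as in 26.2% of all genes tested. The epithelial marker means were 0.41, -0.44 and -0.49 in WT and 0.29, 0.15 and 0.08 in FC gut, so WT libraries 2 and 3 were lowest there too, while WT library 1 was the highest. With the epithelial mean as a covariate the median of the 29 genes was 0.13, beside 0.045 over all genes. Without WT library 1 the median was 0.43, beside -0.06 over all genes, and 18 members had an unadjusted p under 0.05, all higher, where 13.3% of 17282 genes did. Even so 0 members passed with an adjusted p.

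**Figure D1:**
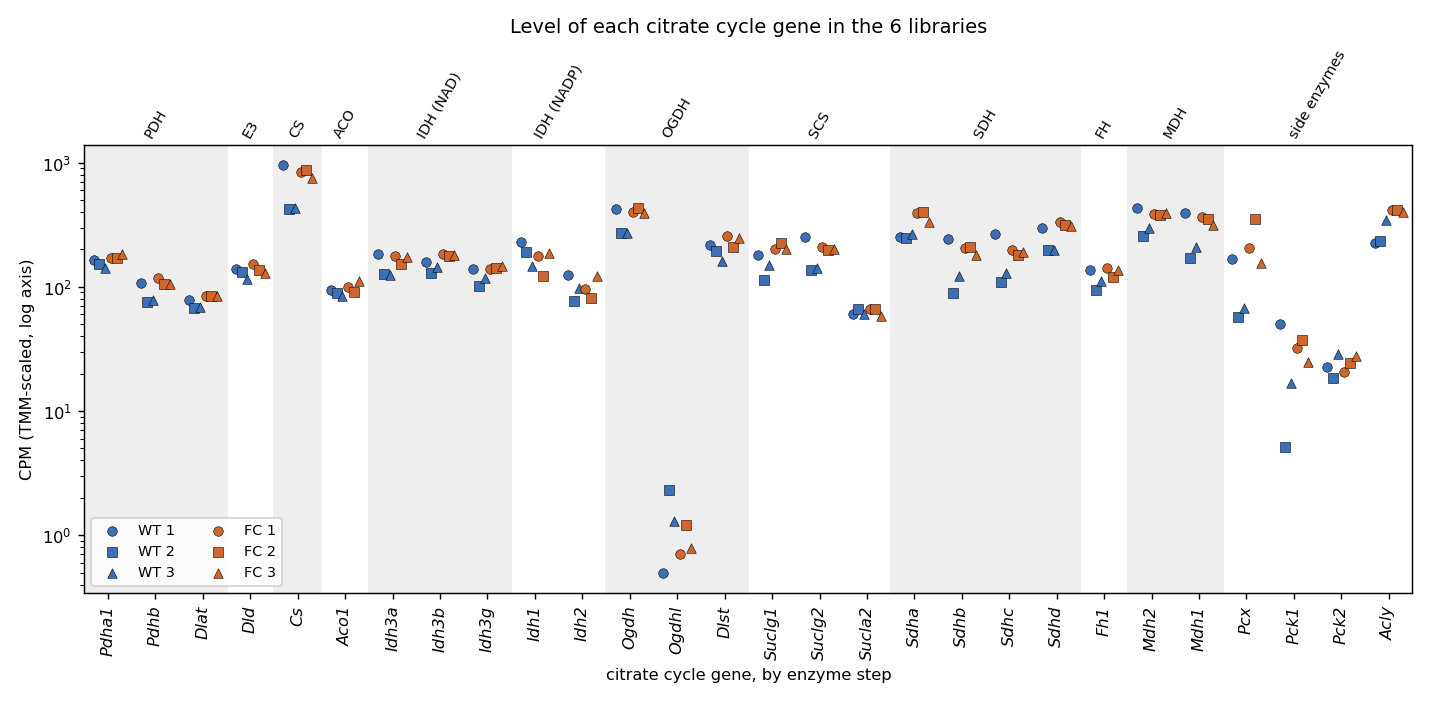
Level of 28 citrate cycle genes that passed the filter, in CPM on a log axis, with the 6 libraries as points (blue, WT, and orange, FC) and genes grouped by enzyme step. In Cs, WT libraries 2 and 3 sit at 423 and 428 CPM, and the other 4 libraries sit between 747 and 949 CPM.

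**Figure D2:**
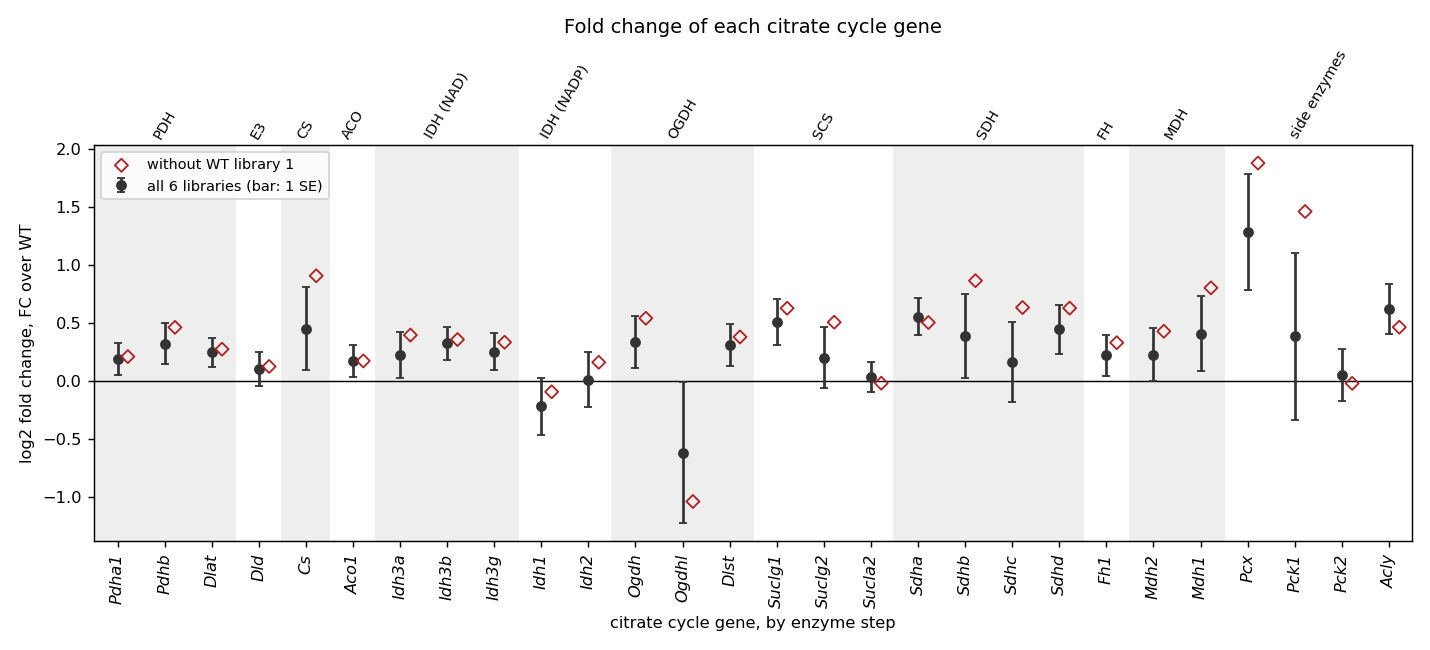
Log2 fold change, FC over WT, of the same 28 genes from edgeR, with bars of 1 SE, and as open diamonds the fit without WT library 1. Points lie between -0.62 (Ogdhl) and 1.28 (Pcx). The diamonds of Pck1 (1.46), Pcx (1.88), Cs (0.91), Sdhb (0.86) and Mdh1 (0.80) lie well above their points. Those of Ogdhl (-1.04), Acly (0.46) and Sdha (0.50) are among the diamonds below their points.

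Pyruvate enters the cycle through the pyruvate dehydrogenase complex, of which 4 members were annotated. Pdha1, the E1 alpha subunit, was at 165, 154 and 141 CPM in WT and 171, 170 and 184 CPM in FC gut, a log2 fold change of 0.19 (SE 0.14). Dlat, the E2 core, was at 77.8, 67.1 and 69.0 CPM against 84.3, 84.5 and 84.9 CPM, a log2 fold change of 0.25 (SE 0.13). In both genes the groups did not overlap, although the gap was small beside the level. Pdhb, the E1 beta subunit, was at 108, 75.4 and 79.0 CPM against 117, 106 and 104 CPM, so WT library 1 lay within the FC range. Dld, the E3 subunit that this complex shares with oxoglutarate dehydrogenase, was at 139, 132 and 116 CPM against 152, 135 and 129 CPM, with overlapping groups and a log2 fold change of 0.10 (SE 0.15). Pdha2, the testis form of the E1 alpha subunit, had 0 counts in all libraries. Pdha1 had fractional counts in all 6 libraries, whose source is not stated, and 603 of its 3734 exonic bases overlap Map3k15 on the other strand.

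Citrate synthase carried the highest CPM of the set. Cs (chromosome 10, 128337734 to 128362479, GENCODE vM21 on GRCm38), which makes citrate, was at 949, 423 and 428 CPM in WT and 844, 868 and 747 CPM in FC gut. WT libraries 2 and 3 were far below the FC libraries, and WT library 1 was above them. The log2 fold change was 0.45 (SE 0.36). Without WT library 1 it was 0.91, and with the epithelial covariate 0.12. Aco1, the cytosolic aconitase that also acts as iron regulatory protein, was at 93.8, 88.6 and 84.8 CPM against 99.7, 91.0 and 110 CPM, with a log2 fold change of 0.17 (SE 0.14). Csl, a citrate synthase-like gene, had 0 counts in all libraries.

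Isocitrate is oxidised by an NAD-dependent dehydrogenase of the cycle and by NADP-dependent relatives. Idh3b, a regulatory subunit of the NAD-dependent enzyme, was at 158, 129 and 145 CPM in WT and 184, 176 and 181 CPM in FC gut, without overlap, and its log2 fold change was 0.32 (SE 0.14). Idh3g, the other regulatory subunit, was at 139, 101 and 118 CPM against 139, 142 and 146 CPM. Its groups were parted only by the margin between 138.80 CPM in WT library 1 and 138.84 CPM in FC library 1. Idh3a, the catalytic subunit, was at 184, 126 and 124 CPM against 178, 153 and 174 CPM, highest in WT library 1. The NADP-dependent enzymes supply NADPH and stand beside the cycle. Idh1, the cytosolic form, was at 228, 190 and 147 CPM against 176, 121 and 187 CPM, a log2 fold change of -0.22 (SE 0.24). Idh2, the mitochondrial form, was at 124, 76.4 and 97.2 CPM against 96.6, 81.7 and 122 CPM, a log2 fold change of 0.01 (SE 0.23), whose sign turned under 11 of 16 alternatives. The groups overlapped in both. The gene 4933405O20Rik, annotated with the same enzyme as the Idh3 subunits, had 0 counts in all libraries.

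The oxoglutarate dehydrogenase complex, which makes succinyl-CoA, held a gene that was nearly silent. Ogdh, its E1 subunit, was at 422, 270 and 272 CPM in WT and 397, 427 and 390 CPM in FC gut, a log2 fold change of 0.33 (SE 0.23). Dlst, its E2 core, was at 218, 195 and 161 CPM against 255, 211 and 245 CPM, a log2 fold change of 0.31 (SE 0.18). In both genes WT library 1 lay above the lowest FC library, and the other WT libraries lay below it. Ogdhl, an E1 paralogue best known from brain, had 8, 56 and 29 counts against 15, 26 and 18 counts. Its log2 fold change of -0.62 (SE 0.61) was the lowest of the set. It was -1.04 without WT library 1, -0.91 without FC library 2, -0.02 without WT library 2 and 0.29 with the epithelial covariate.

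Succinyl-CoA ligase pairs a common alpha subunit with either an ATP-forming or a GTP-forming beta subunit. Suclg1 (chromosome 6, 73248382 to 73276911), the alpha subunit, was at 179, 114 and 149 CPM in WT and 201, 225 and 202 CPM in FC gut, without overlap, a log2 fold change of 0.51 (SE 0.20). Sucla2, the ATP-forming beta subunit, was nearly level, at 60.7, 66.1 and 59.9 CPM against 66.3, 66.5 and 58.7 CPM, a log2 fold change of 0.04 (SE 0.13). Suclg2, the GTP-forming beta subunit, was at 252, 136 and 142 CPM against 209, 197 and 202 CPM, highest in WT library 1. The subunits therefore ran differently across libraries, which shows in their ratios per transcript length, free of depth and scaling. Suclg2 over Sucla2, as a ratio of TPM (counts scaled by transcript length and library), was 1.91, 0.941 and 1.09 in WT and 1.45, 1.36 and 1.58 in FC gut. Suclg1 over Sucla2 was 3.00, 1.75 and 2.53 against 3.08, 3.44 and 3.51, so that every FC library lay above every WT library.

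Succinate dehydrogenase belongs to both the cycle and the respiratory chain, where it is complex II. Its flavoprotein Sdha (chromosome 13, 74322254 to 74350280) was at 251, 247 and 266 CPM in WT and 390, 398 and 334 CPM in FC gut. The WT libraries lay close together, WT library 1 included, and all FC libraries were above them. The log2 fold change was 0.55 (SE 0.16), the smallest unadjusted p of the set, with an adjusted p by edgeR of 0.684, and it ran from 0.46 to 0.63 over all alternatives. Sdhd, a membrane anchor, was at 299, 199 and 199 CPM against 330, 312 and 306 CPM, also without overlap, a log2 fold change of 0.44 (SE 0.21). Sdhb, the iron-sulphur subunit, was at 243, 89.9 and 122 CPM against 206, 208 and 181 CPM. Sdhc, the other anchor, was at 268, 109 and 128 CPM against 196, 180 and 190 CPM. In these 2 genes WT library 1 was the highest of all 6 and the other WT libraries were the lowest. Their log2 fold changes of 0.39 (SE 0.36) and 0.17 (SE 0.35) were 0.86 and 0.63 without WT library 1, and 0.05 and -0.16 with the epithelial covariate. Sdhc was at -0.07 without WT library 2. Sdha over Sdhb, as a ratio of TPM, was 0.406, 1.08 and 0.862 in WT and 0.743, 0.756 and 0.726 in FC gut, so that the FC libraries agreed closely and WT library 1 was set apart from the other 5.

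Sequence before the start of transcription, from RefSeq (GRCm38.p6), is shown for 3 subunits of succinate dehydrogenase. Sdhc had no promoter entry there and is not shown. Windows were the 250 bases before the RefSeq start. GENCODE starts the gene earlier in Sdha and Sdhb, and the last 40 and 68 bases of those windows, which lie inside the gene by GENCODE, are not printed. They are Sdha at chr13:74350281-74350490, minus strand, Sdhb at chr4:140961021-140961202, plus strand, and Sdhd at chr9:50603850-50604099, minus strand. Capitals mark matches on either strand to GCGCANGCG, a core of the site of nuclear respiratory factor 1, or to CCGGAAG, a core of the ETS site that GABP uses, both factors known from genes of mitochondrial proteins.
Sdha: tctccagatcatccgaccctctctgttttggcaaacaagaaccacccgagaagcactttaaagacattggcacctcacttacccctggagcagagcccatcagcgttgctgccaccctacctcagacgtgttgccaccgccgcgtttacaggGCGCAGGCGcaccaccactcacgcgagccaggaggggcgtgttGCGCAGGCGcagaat
Sdhb: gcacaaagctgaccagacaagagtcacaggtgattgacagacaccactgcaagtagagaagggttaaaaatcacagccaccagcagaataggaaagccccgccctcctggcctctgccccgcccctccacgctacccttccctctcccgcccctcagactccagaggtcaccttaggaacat
Sdhd: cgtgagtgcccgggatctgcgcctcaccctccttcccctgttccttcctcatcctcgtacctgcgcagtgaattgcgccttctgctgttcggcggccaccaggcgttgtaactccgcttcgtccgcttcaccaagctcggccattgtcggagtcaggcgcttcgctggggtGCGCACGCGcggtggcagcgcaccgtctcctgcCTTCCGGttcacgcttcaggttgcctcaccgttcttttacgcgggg
In the whole window Sdha held 3 matches to GCGCANGCG, of which the nearest ends 2 bases before the RefSeq start, inside the gene by GENCODE, and is not among those printed. Sdhd held 1 such match and 1 to CCGGAAG, and Sdhb held no match. Whether a window, that of Sdhd included, also lies in or before a neighbouring gene was not checked. A match need not belong to the named gene alone. Of 29 members with a RefSeq promoter, 4 held GCGCANGCG (Ogdh, Sdha, Sdhd and Sucla2) and 2 held CCGGAAG (Idh3g and Sdhd), against 5.86% and 7.83% of 27025 genes. The estrogen-related receptor element TCAAGGTCA was in the windows of 0 of these 29 members and of 0.422% of genes. These 29 members, with 36 windows, were not the 29 that passed the filter. They included Pdha2, Csl and 4933405O20Rik, and lacked Idh3a and Sdhc. No match in the sequences shown overlapped another, and a match describes letters, not binding. A link between matches and levels was not tested.

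Fumarase and the malate dehydrogenases close the cycle. Fh1, which hydrates fumarate to malate, was at 136, 93.9 and 110 CPM in WT and 141, 119 and 136 CPM in FC gut, a log2 fold change of 0.22 (SE 0.18). Mdh2, the mitochondrial malate dehydrogenase, was at 432, 258 and 299 CPM against 389, 376 and 392 CPM, and Mdh1, the cytosolic form of the malate-aspartate shuttle, at 395, 172 and 211 CPM against 363, 355 and 313 CPM. Both dehydrogenase genes were highest in WT library 1 and lowest in WT libraries 2 and 3. Their log2 fold changes were 0.23 (SE 0.23) and 0.41 (SE 0.32), and 0.43 and 0.80 without WT library 1.

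The enzymes that feed or drain the cycle held the largest differences. Pcx (chromosome 19, 4510472 to 4621752), pyruvate carboxylase, was at 167, 57.4 and 67.7 CPM in WT and 204, 352 and 155 CPM in FC gut. FC library 2 was the highest, and WT library 1 lay above FC library 3. The mean was 97.4 ± 60.6 CPM (SD, n = 3) in WT and 237 ± 103 CPM in FC gut. The log2 fold change of 1.28 (SE 0.50) was 1.88 without WT library 1 and 0.85 without FC library 2. Taken over Cs within each library, Pcx parted the groups, at 0.124, 0.0956 and 0.112 in WT and 0.170, 0.286 and 0.146 in FC gut as a ratio of TPM.

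Acly (chromosome 11, 100476353 to 100528000), ATP-citrate lyase, was at 225, 232 and 345 CPM in WT and 416, 417 and 399 CPM in FC gut, without overlap. Its log2 fold change was 0.62 (SE 0.21), and 0.77 with the epithelial covariate, in contrast to Cs. WT library 1 was its lowest library while being the highest for Cs, so that Acly over Cs was 0.157, 0.362 and 0.533 in WT and 0.325, 0.318 and 0.353 in FC gut. Pck1 and Pck2, the cytosolic and mitochondrial carboxykinases that turn oxaloacetate into phosphoenolpyruvate, had lower levels. Pck1 was at 50.6, 5.16 and 16.9 CPM against 32.0, 37.6 and 24.9 CPM, the widest spread among WT libraries in relation to its level. Its log2 fold change of 0.38 (SE 0.72) was 1.46 without WT library 1, -0.10 without WT library 2 and -0.05 with the epithelial covariate. Pck2 was at 22.4, 18.5 and 28.8 CPM against 20.5, 24.4 and 27.6 CPM, with a log2 fold change of 0.05 (SE 0.22).

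**Figure D3:**
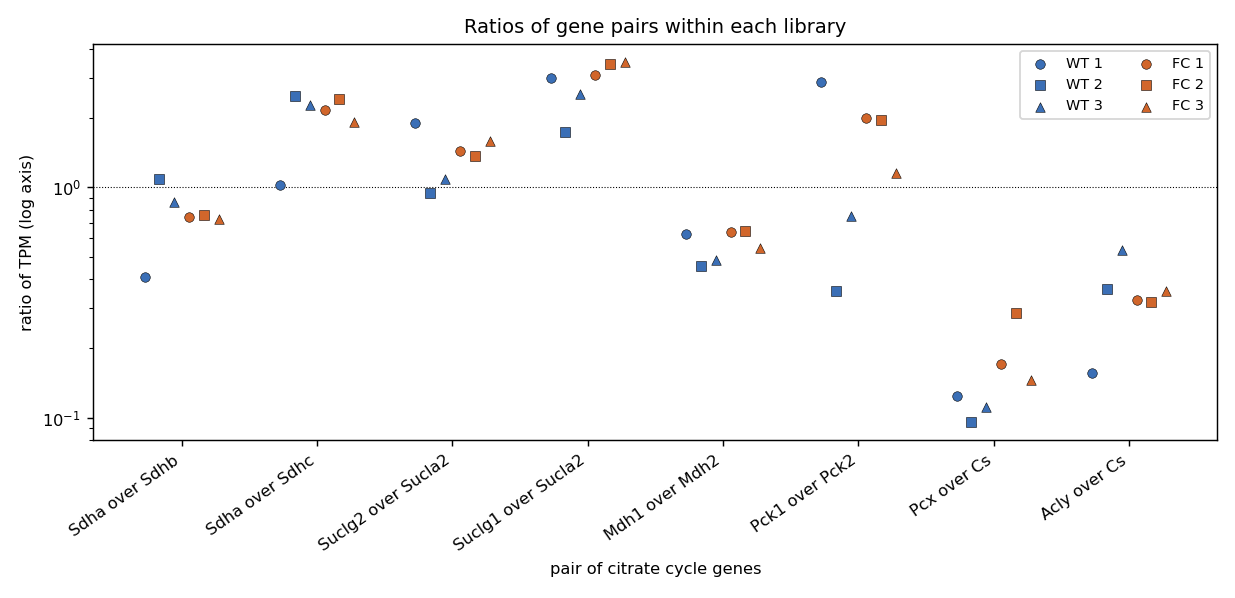
Ratios of TPM for pairs of citrate cycle genes within each library, on a log axis, with the 6 libraries as points. Suclg1 over Sucla2 and Pcx over Cs part the groups. In every other pair computed, shown or not, the groups overlapped, and the share of parted pairs over all genes was not computed. Sdha over Sdhb runs from 0.406 in WT library 1 to 1.08 in WT library 2. The pairs were chosen by enzyme step and location, Pcx and Acly over Cs after their values were seen.

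Per transcript length, Mdh2 (410 ± 33.1 TPM, SD, n = 3), Cs (355 ± 66.8) and Sdhd (343 ± 16.4) led in WT gut. In FC gut the same genes led, at 481 ± 12, 508 ± 38.2 and 466 ± 8.97 TPM. In WT gut Mdh2 and Cs, and Cs and Sdhd, differed by less than the SD of Cs, and in FC gut Cs and Mdh2 did. Among members kept by the filter the lowest were Ogdhl (0.827 ± 0.633 TPM in WT), Pck2 (13.1 ± 4.95) and Pck1 (14.5 ± 10.6). Mdh1 was below Mdh2 in every library, at 0.627, 0.458 and 0.483 against 0.640, 0.647 and 0.547 of it. TPM rests on the deposited transcript lengths and is a share of all RNA counted, mitochondrially encoded RNA included, so it was used to order genes and not to compare libraries.

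Genes around the cycle were read from lists, in which 0 genes passed edgeR's test at an adjusted p under 0.05. All 8 kept genes of mitochondrial shuttles and carriers had positive log2 fold changes (median 0.48), where 44.2% of all genes tested were positive, and 4 had all FC libraries above all WT ones, as did 8.73% of all genes. Among them the aspartate-glutamate carriers Slc25a13 and Slc25a12 were at 0.60 (SE 0.14) and 0.61 (SE 0.19), and Got1, the cytosolic aspartate aminotransferase, at 0.51 (SE 0.21). Slc25a13 was at 27.9, 24.5 and 27.4 CPM in WT and 43.1, 41.4 and 36.9 CPM in FC gut, so that, as with Sdha, WT library 1 stayed with its group. Of 10 genes that control pyruvate entry 7 were positive (median 0.15), with Pdpr, the regulatory subunit of pyruvate dehydrogenase phosphatase, at 0.65 (SE 0.20), the kinase Pdk1 at 0.62 (SE 0.23) and the phosphatase Pdp1 at -0.33 (SE 0.19). All FC libraries lay above WT in Pdpr and Pdk1, and below WT in Pdp1, as in 4.27% of all genes tested. The median of pyruvate entry genes was 0.57 without WT library 1. Of 12 genes of anaplerosis 6 were positive (median 0.16), and without WT library 1 their median was 0.0039. Its members of smallest p were those of propionyl-CoA entry into succinyl-CoA, Mmut at 0.47 (SE 0.16), Pccb at 0.68 (SE 0.26) and Pcca at 0.61 (SE 0.26), each without overlap.

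Of 14 regulators of mitochondrial biogenesis 7 were positive (median 0.01, and -0.15 without WT library 1). Ppargc1a, a coactivator of mitochondrial genes, was at 17.0, 2.85 and 7.61 CPM in WT and 27.5, 44.2 and 20.6 CPM in FC gut, a log2 fold change of 1.76 (SE 0.64). Its groups did not overlap, and FC library 2 was the highest, as for Pcx. Ppara, a receptor for fatty acids, was at 0.89 (SE 0.36) and Tfb1m, a methyltransferase of mitochondrial ribosomal RNA, at -0.60 (SE 0.28). All FC libraries lay above WT in Ppara and below WT in Tfb1m, as in 8.73% and 4.27% of all genes tested. The 7 genes of lipoate attachment, the cofactor of Dlat and Dlst, had a median of -0.00011, with Mecr at 0.21 (SE 0.19), Lipt1 at -0.39 (SE 0.38) and Lipt2 at -0.33 (SE 0.49). The 7 genes of succinate dehydrogenase assembly and iron-sulphur clusters had a median of -0.01, and of 0.22 without WT library 1, with the cysteine desulphurase Nfs1 at 0.33 (SE 0.14), Hscb at 0.34 (SE 0.32) and Iscu at -0.10 (SE 0.14). Of 16 glycolytic genes 10 were positive (median 0.05, and 0.10 without WT library 1), with the hexokinase Hk1 at 0.41 (SE 0.19) and Pfkp, a phosphofructokinase, at 0.45 (SE 0.24), and Tpi1 at 0.29 (SE 0.26).

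Other energy pathways from the same annotation, without the citrate cycle genes, are given for comparison. Oxidative phosphorylation genes, mitochondrially encoded ones included, were positive in 80 of 118 (median 0.10), fatty acid degradation genes in 24 of 40 (median 0.26) and glycolysis genes in 31 of 45 (median 0.12). Without WT library 1 these medians were 0.54 (109 of 118 positive), 0.38 and 0.25, beside 0.43 for the citrate cycle genes. Groups did not overlap, with FC above, in 10, 4 and 4 of these, beside 8 of the 29 citrate cycle genes and 8.73% of all genes tested, a share near that of these 3 pathways. With FC below, the counts were 1, 3 and 1, beside 0 citrate cycle genes and 4.27% of all genes tested. No test was made between the sets. The 13 mitochondrially encoded protein genes were negative in all cases (median -0.71), with a summed level of 121281, 27657 and 21445 CPM in WT and 37341, 28608 and 34720 CPM in FC gut. Their median was 0.22 without WT library 1, with 12 of 13 positive, so the direction rested on that library.

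**Figure D4:**
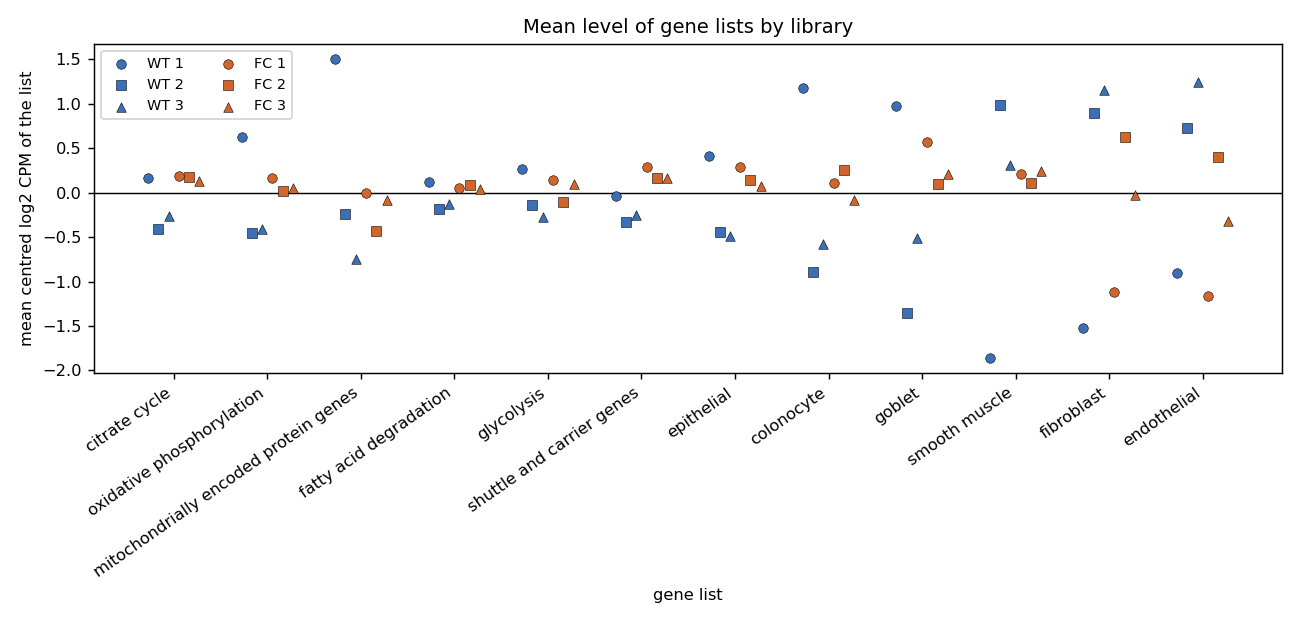
Mean log2 CPM of gene lists in each library, centred on the 6 libraries. WT library 1 is highest in epithelial (0.41), colonocyte (1.18), goblet (0.97) and mitochondrially encoded genes (1.5). It is also highest in oxidative phosphorylation (0.63), glycolysis (0.27) and fatty acid degradation genes (0.12). It is lowest in smooth muscle (-1.86) and fibroblast markers (-1.52), and among the FC libraries in citrate cycle genes (0.17).

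Markers of other cells are given beside these values, and 0 of them passed edgeR's test at an adjusted p under 0.05. DESeq2 called 1 neutrophil, 1 colonocyte and 1 small intestinal marker, with 0.759% of all genes called. All FC libraries lay below all WT libraries in 2 neutrophil markers and 1 colonocyte marker, as in 4.27% of all genes tested. Goblet cell markers, 9 genes, summed to 20555, 3810 and 6308 CPM in WT and 14621, 11353 and 10528 CPM in FC gut. The 9 fibroblast markers summed to 475, 3009 and 4084 CPM against 627, 2474 and 1663 CPM, and the 8 endothelial markers to 81.4, 254 and 385 CPM against 70.1, 207 and 122 CPM. WT libraries 2 and 3 thus held the least epithelial and the most fibroblast and endothelial RNA, and also the lowest mean of the citrate cycle genes. The 7 kept neutrophil markers were lower in FC gut on average (median -1.17), as were all 8 T cell markers (median -0.63) and all 7 B and plasma cell markers (median -0.58), while 8 of 9 macrophage markers were higher (median 0.24). Without WT library 1 the macrophage median was -0.03, with 4 of 9 higher, so that direction rested on 1 library. The mean centred log2 CPM of T cell markers was 0.07, -0.66 and 1.15 in WT and -0.14, 0.22 and -0.63 in FC gut. That of B and plasma cell markers was 0.36, -0.76 and 1.02 against -0.19, 0.14 and -0.57. In both lists WT library 2 was the lowest of all libraries and WT library 3 the highest. Adipocyte markers summed to 11 to 72.6 CPM. The part of cell makeup in the citrate cycle values was not tested beyond the epithelial covariate.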

How the data were processed

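The authors deposited 1 table per library with an estimated count per gene, a transcript length and pathway annotation. The tools listed per the submitters' processing notes are TopHat2 (version 2.0.0) on mm10, and RNA was extracted with TRIzol and made into TruSeq libraries per the labels' protocols. Counter, annotation release and strand setting are not stated, so overlapping genes on opposite strands could share reads.

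Counts were rounded and tested with edgeR 4.0.16 (R 4.3.3) by the quasi-likelihood method, TMM factors (0.824 to 1.16) and filterByExpr (minimum count 10), which kept 16732 of 56362 features. Calls were made at 0.05 on p adjusted by Benjamini-Hochberg over all genes kept. Each SE was derived from the log2 fold change and the F statistic. Centred means used log2(CPM + 0.5). DESeq2 1.42.0, limma-voom (limma 3.58.1), other factors and filters, a replicate block, an epithelial covariate and leaving out each library were alternatives. The fits were checked on simulated counts with changes larger than those of every member but Pcx. That check therefore did not cover differences of the size most members had. Counts of replicate libraries differed beyond sampling noise (chi-square over its degrees of freedom, 33.8 to 247), so none was a duplicate. Coordinates came from GENCODE vM21 on GRCm38, the assembly that mm10 names, and held all 32 members.

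Members, lists and tests were chosen with earlier results of these data known. Named genes were the members, Fcer1a and, from each pathway list, the 3 kept genes of smallest p. Markers of other cells are given as lists, and it was decided to name the small intestinal markers after their values were seen. One member that passed the filter is counted in the sets and is not reported here by itself.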

Additional observations from a re-analysis of the deposited data

How the results depend on the processing

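The median log2 fold change of the 29 citrate cycle genes stayed positive under every alternative run, from 0.13 with the epithelial covariate to 0.43 without WT library 1, and leaving out 1 library gave 0.17 to 0.43. The number of these genes with a negative value, 2 in the fit reported, was 5 with upper quartile factors, 5 with no scaling factors, 5 with the epithelial covariate and 2 to 6 when 1 library was left out. The number of genes past the threshold over all genes, 0 in the fit reported, was 127 by DESeq2, 2 by limma-voom and 3 with no filter on low counts, and 0 with each library left out. None of those calls was a citrate cycle gene. At an unadjusted p under 0.05 edgeR counted 1145 genes. With the replicate block the median was 0.29, 2 members were negative and 0 genes passed. Same-numbered libraries deviated from their group means with correlations of 0.48, -0.14 and 0.0077, so the numbers were not taken as pairs. Genes with log2 fold changes near 0 (Idh2, Sucla2, Pck2, Dld) turned sign under some settings, Ogdhl, Sdhc, Suclg2 and Pck1 under the covariate, and Sdhc and Pck1 also without WT library 2. Depth limits Ogdhl most, with 8 to 56 counts per library. With 3 mice in each group, an exact test of a single gene could not go below 0.10.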
